A study of Rattus norvegicus with 20 samples.

Results

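Bladder (dome) epithelial cells and whisker follicle cells were compared after both had been transplanted into mouse skin, recovered and recultured. The comparison takes 4 of the 20 RNA-seq libraries of the study, 2 of recovered bladder cells and 2 of recovered whisker cells, assigned by their labels, and runs across all 13302 rat genes with at least 1 CPM (reads of a gene scaled to a common library size, the unit of all levels given) in at least 1 library. It asks how far bladder cells that had been exposed to hair-forming skin still differed from cells of a hair follicle that had been through the same transplantation. Libraries of the same 2 tissues before transplantation and of recovered trachea, vagina and thymus cells serve as background.

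All cells came from Sprague-Dawley rats that express EGFP (enhanced green fluorescent protein) constitutively, the green rat CZ-004. Bladder donors were of age PN201 (postnatal day) and whisker donors of age PN57, so that donor age and tissue cannot be told apart. Trachea and vagina donors were of age PN200 and thymus donors of age PN137. The paper states that the thymus cells were taken from a frozen stock. The bladder cells were a bulk culture. The whisker cells were clone 7 before transplantation and its subclone 14 after it, so that the whisker libraries stand for 1 clone. Whisker differences before and after transplantation therefore cannot be told apart from differences between a clone and its subclone. This limit holds for every comparison of the 2 rounds below. Cells were grown on irradiated mouse 3T3-J2 feeder cells, transplanted into newborn mouse skin grafted onto athymic mice, recovered from dissected GFP-positive follicles, grown again on feeder cells and sorted on EGFP before RNA was extracted. The sources used here do not say that the 2 libraries of a group came from separate rats or grafts, and the p-values therefore measure the spread between these libraries, which may be technical.

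The urothelium, which lines the bladder, is a transitional epithelium whose luminal cells carry plaques of uroplakins, are joined by claudins and contain simple epithelial keratins. The hair follicle and the epidermis are stratified squamous tissues, in which basal cells divide on a basement membrane and the upper layers build desmosomes, a cornified envelope and a lipid barrier. Developmental transcription factors, such as Hox genes along the body axis and AP-2, Dlx and Gli factors in skin appendages, mark where an epithelium came from.

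Sequencing depth was alike. The 4 libraries held 22556514 and 24974751 (bladder) and 22714070 and 25293172 (whisker) reads counted on genes, within the range of 20723083 to 29824855 of the series. A level of 3 reads in a library, taken here as the smallest level shown, corresponds to 0.123 to 0.143 CPM. The 2 libraries of each group differed from each other by more than sampling noise and were kept as separate samples.

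The labelled tissues were checked against their markers. Of 15 urothelial markers 6 could be paired with a gene identifier, and their summed level was 987 and 926 CPM in recovered bladder against 2.16 and 2.62 CPM in recovered whisker. Krt19 and Krt8 were the largest members in bladder. The same sum was 318 and 336 CPM in recovered trachea, 203 and 196 CPM in thymus and 10.0 and 11.4 CPM in vagina. These markers were thus not particular to bladder. Of 8 markers of basal keratinocytes 3 could be paired (Dsc3, Col17a1 and Dsg3), with a sum of 4666 and 4639 CPM in bladder and 7782 and 8201 CPM in whisker. This sum was 7582 and 7673 CPM in recovered vagina, 4765 and 5016 CPM in thymus and 2595 and 2479 CPM in trachea. The basal markers were thus not particular to whisker either. The recovered bladder cells held both sets of markers, and in the recovered whisker cells the urothelial markers were near 0.

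The recovered cells of the 2 tissues differed widely. In limma voom, 2674 of 13302 genes (20.1%) were called, which required an adjusted p under 0.05 and at least a 2-fold difference. Of these, 1798 were higher in recovered bladder (13.5%) and 876 lower (6.59%), while the median log2 fold change over all genes was -0.01. Called higher genes had a median log2 fold change of 2.15 and called lower genes of -1.57. Among them, 228 were higher by at least 5 log2 units and 29 lower by as much. No read was counted in either whisker library in 156 of the genes called higher, and none in either bladder library in 19 of the genes called lower. Genes called higher took 13.1% and 12.8% of the reads of the bladder libraries and 4.02% and 4.01% of those of the whisker libraries. Genes called lower took 2.01% and 1.98% in bladder and 5.24% and 5.35% in whisker.

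**Figure D1:**
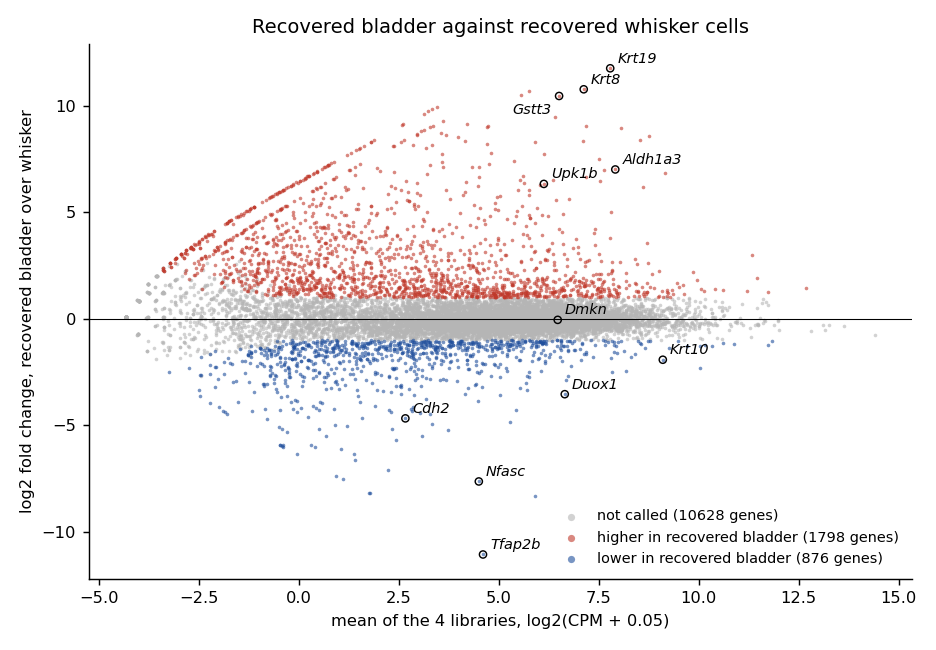
Each point is a gene, with the mean level of the 4 libraries on the x axis as log2(CPM + 0.05) and the log2 fold change of recovered bladder over recovered whisker on the y axis. The 1798 red genes reach 11.76 (Krt19) and the 876 blue genes reach -11.06 (Tfap2b, fitted with no read in bladder), and the straight rows of red points at the upper left are genes with few or no reads in whisker.

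Symbols were available for a minority of genes, and these had been picked by the study from its own lists of genes that differ between cell types. Of the 1911 genes with a usable symbol, 873 (45.7%) were called, 31.0% higher and 14.7% lower, against 15.8% of the 11391 genes without. The counts within the gene lists are to be read against 31.0% and 14.7%. The lists were drawn up with results of these data known, and their counts are a description.

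Keratins of simple and mucosal epithelia separated the cells by wide margins. Krt19, a type I keratin of simple epithelia and of urothelium, was at 469 and 413 CPM in recovered bladder and at 0.04605 and 0.205 CPM (6 reads in all) in recovered whisker. Its log2 fold change of 11.76 ± 0.79 (SE) was the largest of all genes tested (limma adjusted p = 3.58e-09). Krt8, a type II keratin, was at 276 and 281 CPM against 0.04605 and 0.328 CPM, with a log2 fold change of 10.77 ± 0.68. Its type I partner Krt18 was at 24.1 and 22.3 CPM in bladder and at 0.138 and 0 CPM in whisker, where 3 reads were counted in all, a ratio of 336 with a 95% counting interval of 122 to 1731. Krt4, a keratin of mucosal linings, was at 302 and 272 CPM against 0.737 and 0.368 CPM (log2 fold change 9.06 ± 1.37). All 4 paired members of this list, of 7 considered, were higher in recovered bladder. In none did the libraries of the groups overlap, which held for 39.9% of all genes tested in this direction.

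Before transplantation the same keratins had already separated the tissues. Krt8 was then at 1656 and 1700 CPM in bladder and 0.832 and 0.703 CPM in whisker, and Krt18 at 379 and 290 CPM in bladder and 0.333 and 0.515 CPM in whisker. The levels of both in bladder cells were thus several times those found after recovery, while whisker cells were under 1 CPM in both rounds. The difference between the tissues in Krt8 was not called as changed between the rounds, with an interaction of -0.28 ± 0.80 log2 units. This value rests on 35 whisker reads before transplantation and 9 after, and in Krt18 there were 19 and 3. With so few reads, a missing call does not show that the difference was kept. Krt4 stood at 16.2 and 69.6 CPM in bladder before transplantation, under its level after recovery, but the 2 libraries lay far apart and the interaction of 2.98 ± 1.99 did not pass (limma adjusted p = 0.23).

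Krt10, the type I keratin of the upper epidermal layers, ran against the 4 simple and mucosal keratins. It was lower in recovered bladder, at 235 and 223 CPM, than in recovered whisker, at 821 and 917 CPM, with a log2 fold change of -1.92 ± 0.11 (limma adjusted p = 5.83e-10). Bladder cells before transplantation had 1.57 and 1.64 CPM of Krt10, against 1716 and 1351 CPM in whisker cells. The gap between the tissues was smaller after recovery by 7.95 ± 0.32 log2 units (limma adjusted p of the interaction 1.99e-11). Of the epidermal and hair keratin list only 2 of 14 members could be paired, Krt10 and Krtap3-2, a hair keratin-associated protein. Krtap3-2 was higher in recovered bladder, at 9.57 and 8.18 CPM against 0.414 and 0.123 CPM. It had also been called higher in bladder before transplantation, at 6.68 and 2.63 CPM against 0.0416 and 0.0937 CPM.

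The promoters of 3 of these keratins are printed because their genes show the contrasting patterns, Krt8 and Krt18 as a pair far higher in bladder and Krt10 as the epidermal keratin that was lower. The sequences are from RefSeq on the GRCr8 build, 250 bases before and 50 after the start site, whereas the reads had been counted on Rnor 6.0. Krt8 lies at chr7:135010290-135010589 on the minus strand, Krt18 at chr7:135035918-135036217 on the plus strand, and Krt10 at chr10:84839111-84839410 on the minus strand. Capitals mark matches on either strand to 4 motifs chosen after the values were seen, which are the letters TATAAA of the core promoter, the GC box GGGCGG, the AP-2 motif GCCNNNGGC and the forkhead motif TGTTTAC.
Krt8: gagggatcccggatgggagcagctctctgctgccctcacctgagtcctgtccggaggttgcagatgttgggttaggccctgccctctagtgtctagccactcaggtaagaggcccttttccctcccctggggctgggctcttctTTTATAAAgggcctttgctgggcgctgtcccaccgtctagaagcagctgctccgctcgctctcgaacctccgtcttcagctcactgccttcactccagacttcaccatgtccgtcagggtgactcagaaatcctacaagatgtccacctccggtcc
Krt18: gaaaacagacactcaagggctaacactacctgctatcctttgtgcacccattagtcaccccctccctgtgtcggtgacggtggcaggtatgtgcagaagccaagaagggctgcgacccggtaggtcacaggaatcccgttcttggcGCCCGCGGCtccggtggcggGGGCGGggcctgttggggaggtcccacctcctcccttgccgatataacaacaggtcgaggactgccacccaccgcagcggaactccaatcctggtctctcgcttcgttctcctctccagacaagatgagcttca
Krt10: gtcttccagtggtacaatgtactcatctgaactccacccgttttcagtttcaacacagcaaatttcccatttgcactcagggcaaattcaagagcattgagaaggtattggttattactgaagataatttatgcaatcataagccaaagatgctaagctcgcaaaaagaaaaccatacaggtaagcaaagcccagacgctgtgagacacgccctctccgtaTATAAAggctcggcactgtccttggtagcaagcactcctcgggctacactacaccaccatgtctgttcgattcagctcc
The Krt8 window holds TATAAA as 2 overlapping matches, from 106 and 104 bases before the start, and the Krt10 window holds TATAAA from 29 bases before the start. The Krt18 window holds an AP-2 match from 104 bases and a GC box from 84 bases before the start. Of all 33469 promoters in the table, 14.2% hold TATAAA, 33.1% GGGCGG, 15.1% GCCNNNGGC and 3.78% TGTTTAC. The matches describe the letters of the windows and not bound factors.

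Urothelial genes were higher in recovered bladder in all 5 members that could be paired, of 13 considered. Upk1b, a uroplakin of the luminal plaques, was at 141 and 134 CPM against 1.66 and 1.72 CPM, with a log2 fold change of 6.33 ± 0.28 (limma adjusted p = 2.84e-11). Upk3bl, a uroplakin-like gene, was at 12.2 and 12.4 CPM against 0.645 and 0.655 CPM. Psca, a small surface protein anchored in the membrane, was at 26 and 22.3 CPM against 0.184 and 0.123 CPM. In these 3 genes the libraries did not overlap, which held for 39.9% of all genes tested in this direction. Whisker lay near the smallest level shown in Psca and above it in Upk1b and Upk3bl. Foxa1, a forkhead factor that opens chromatin in endodermal epithelia, was at 51.04 and 52.5 CPM against 0.0921 and 0.246 CPM, a log2 fold change of 8.19 ± 0.88. Elf3, an epithelial ETS factor, was at 755 and 717 CPM against 116 and 122 CPM. None of the 5 was called in the interaction with the round, and all 5 had been higher in bladder before transplantation. Upk1b (0.93 ± 0.35, limma adjusted p = 0.036) and Elf3 (0.67 ± 0.14, limma adjusted p = 0.001) fell short only of the 2-fold threshold. For Foxa1 the interaction of -3.11 ± 1.57 rests on 1 whisker read before transplantation and 8 after. Other recovered tissues held some of these genes too. Thymus had mean levels of 73.9 CPM (Upk1b), 19.6 CPM (Psca) and 871 CPM (Elf3), the last above bladder. Foxa1 was at 11.6 CPM in trachea and lower in thymus and vagina.

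**Figure D2:**
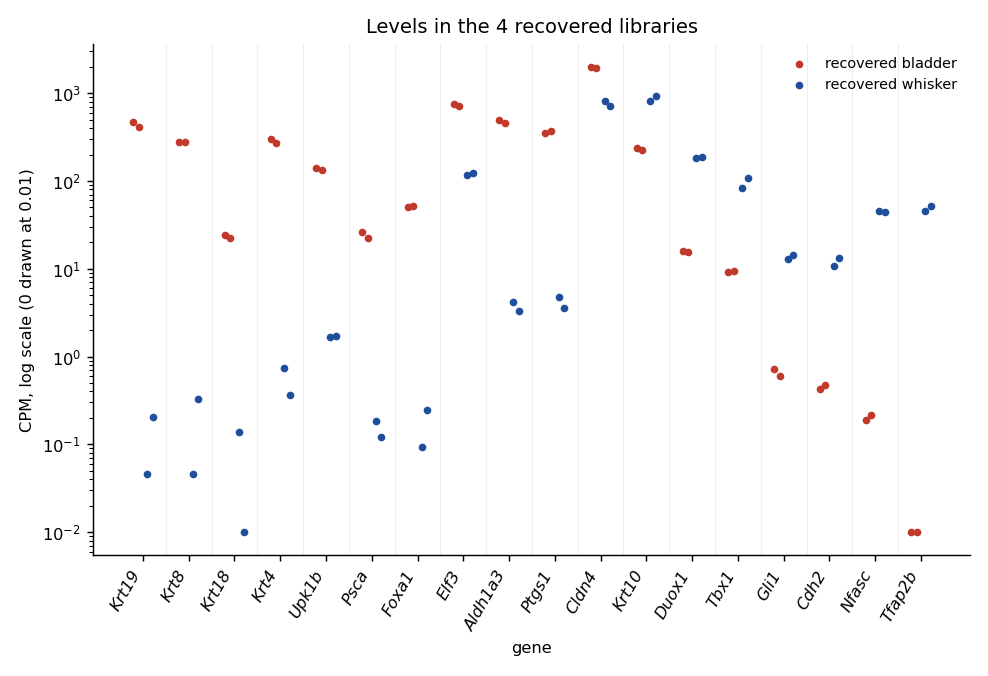
Levels of 18 genes in each of the 4 recovered libraries, in CPM on a log scale, with values of 0 drawn at 0.01. Red points (bladder) and blue points (whisker) do not overlap in any of these genes. Bladder is the higher group from Krt19 to Cldn4 and the lower from Krt10 to Tfap2b. Over all genes tested, the libraries did not overlap in 39.9% in the higher and 40.5% in the lower direction.

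Other genes with wide margins came from several functions. Gstt3, a glutathione transferase, was at 190.2 and 173 CPM in recovered bladder and 0.0921 and 0.123 CPM in whisker (log2 fold change 10.46 ± 0.73). Piezo2, a mechanically gated cation channel, was at 180 and 160.4 CPM against 0.184 and 0.246 CPM. Akap12, a scaffold for protein kinase A, was at 551 and 508 CPM against 0.967 and 1.11 CPM. These 3 genes were thus strongly expressed in bladder and near or under 1 CPM in whisker. Their highest mean level in the other recovered tissues was in trachea, at 162 CPM for Gstt3, 384 CPM for Akap12 and 33.1 CPM for Piezo2. Gcnt3, an enzyme that branches mucin sugar chains, had no read in whisker and 20 and 14.8 CPM in bladder, at least 133-fold higher when whisker is set at 3 reads per library. Sh3tc1, at 21.3 and 21.9 CPM in bladder, was at least 166-fold higher by the same reckoning. Pigr, the receptor that carries IgA across mucosal epithelia, had 1 read in whisker and 16.9 and 13.9 CPM in bladder, a ratio of 670 with a 95% counting interval of 127 to 27994. Tbc1d9 likewise had 1 read in whisker and 16.7 and 13.8 CPM in bladder. Recovered thymus had means of 13.6 CPM of Gcnt3 and 16.5 CPM of Pigr, and recovered trachea 10.5 CPM of Sh3tc1 and 10.8 CPM of Tbc1d9. Among genes without a symbol, singled out after their values were seen, ENSRNOG00000048771 was at 109 and 106 CPM against 0.04605 and 0.0409 CPM (1 read in each whisker library).

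Among genes with a usable symbol and at least 10 CPM in whisker, those lower in recovered bladder were led by a transcription factor and an adhesion molecule. Tfap2b, which encodes the factor AP-2 beta, had no read in either bladder library and stood at 45.2 and 51.8 CPM in whisker, at least 357-fold lower in bladder when bladder is set at 3 reads per library. Whisker cells before transplantation had 35.3 and 32.9 CPM. Nfasc (neurofascin), an adhesion molecule of the immunoglobulin family best known from nerve fibres, was at 0.1905 and 0.215 CPM in bladder and 45.8 and 44.01 CPM in whisker, a log2 fold change of -7.64 ± 0.36 (limma adjusted p = 4.79e-11). Neither gene was called in the interaction with the round.

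Further genes of this group had smaller fold changes than Tfap2b. Chl1, a neural adhesion molecule, was at 0.9999 and 0.517 CPM in bladder against 14.6 and 16.3 CPM in whisker, and Cdh2 (N-cadherin) at 0.429 and 0.474 CPM against 10.8 and 13.4 CPM. Epha7, an ephrin receptor, was at 2.71 and 2.93 CPM against 31.5 and 33.8 CPM. The 3 genes had log2 fold changes of -4.40, -4.68 and -3.52. In none did the libraries overlap, which held for 40.5% of all genes tested in this direction. Cdh2 and Epha7 were also called in the interaction, by -2.67 and -1.20 log2 units, and their levels in bladder before transplantation had been 9.63 and 7.07 CPM (Cdh2) and 6.23 and 6.98 CPM (Epha7). Slc6a4, the serotonin transporter, was at 5.09 and 4.95 CPM against 61.3 and 59.2 CPM, and Anpep, a membrane aminopeptidase, at 0.619 and 0.732 CPM against 12.6 and 13.7 CPM. AABR07065923.1 (ENSRNOG00000005826), singled out after its values were seen, was at 0.476 and 0.258 CPM against 123 and 115 CPM.

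Genes of hair follicle development were tested in 17 of 30 members, of which 1 was higher (Edar) and 7 lower (Tfap2b, Dlx5, Gli1, Dlx6, Bcl11a, Dlx1 and Dlx3), with a list median of -0.71. Lhx2 and Gata3, follicle factors that the paper discusses, were among the members that could not be paired. Gli1, a target and effector of Hedgehog signalling, was at 0.714 and 0.603 CPM in bladder and 12.9 and 14.2 CPM in whisker (log2 fold change -4.33 ± 0.32). Dlx5, a homeobox factor, was at 0.286 and 0.215 CPM against 9.35 and 10.2 CPM, and Bcl11a, a zinc finger repressor, at 0.9999 and 0.818 CPM against 10.3 and 11.3 CPM. All 3 lay near or under 1 CPM in bladder. Edar, the ectodysplasin receptor, was at 4.71 and 3.62 CPM in bladder and 1.06 and 0.655 CPM in whisker. Its ligand Eda (8.24 and 8.18 CPM against 11.4 and 11.8 CPM) and its adaptor Edaradd (49.5 and 51.2 CPM against 53.5 and 49.04 CPM) were not called.

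Of the genes of the cornified envelope and epidermal barrier, 24 of 33 could be tested, and 5 were higher in recovered bladder, 9 lower and 10 not called, with a median log2 fold change of -0.40. Dmkn (dermokine), a secreted protein of the upper epidermis, was at 91.3 and 83.2 CPM in bladder and 91.2 and 89.2 CPM in whisker, and the libraries of the groups overlapped. Ecm1, a secreted matrix protein, was at 755 and 766 CPM against 798 and 779 CPM. Sbsn (suprabasin) was at 104 and 87.2 CPM against 169 and 171 CPM, short of a 2-fold difference. Among those called, Casp14, the caspase of cornifying cells, was lower at 8.48 and 8.39 CPM against 54.2 and 59.9 CPM. Calml5, a calmodulin-like protein of the epidermis (11.5 and 10.3 against 51.4 and 53.7 CPM), and the protease Klk7 (3.24 and 3.23 against 21.2 and 12.4 CPM) were lower too. Cers3, a ceramide synthase of the skin barrier, was higher at 77.9 and 82.6 CPM against 25.3 and 24.1 CPM. Padi1, an enzyme that citrullinates proteins, was higher by 6.04 log2 units, at 112 and 100.1 CPM against 1.43 and 1.76 CPM.

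Before transplantation 21 of these 24 genes had been lower in bladder and 2 higher, with a median of -4.27. At that stage 4250 of all 13302 genes (32.0%) were called, 18.2% higher and 13.7% lower, and 69.5% of the genes with a symbol, 38.9% higher and 30.6% lower. The interaction of tissue and round was called upward in 19 members of the list and downward in 1 (Padi1). Over all genes 2831 (21.3%) were called in the interaction, 11.2% upward and 10.1% downward, and over genes with a symbol 43.6%, 24.5% upward and 19.1% downward. Dmkn had an interaction of 9.59 ± 0.56 log2 units (limma adjusted p = 1.23e-09), with 0.299 and 0.172 CPM in bladder cells before transplantation and 213 and 188 CPM in whisker cells. Sbsn had 0.859 and 1.64 CPM in bladder before transplantation against 567 and 515 CPM in whisker, an interaction of 7.997 ± 0.43. In Dmkn, Sbsn and Krt10 the bladder libraries lay higher after recovery than before and the whisker libraries lower, so that the gap narrowed from both sides in these values.

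**Figure D3:**
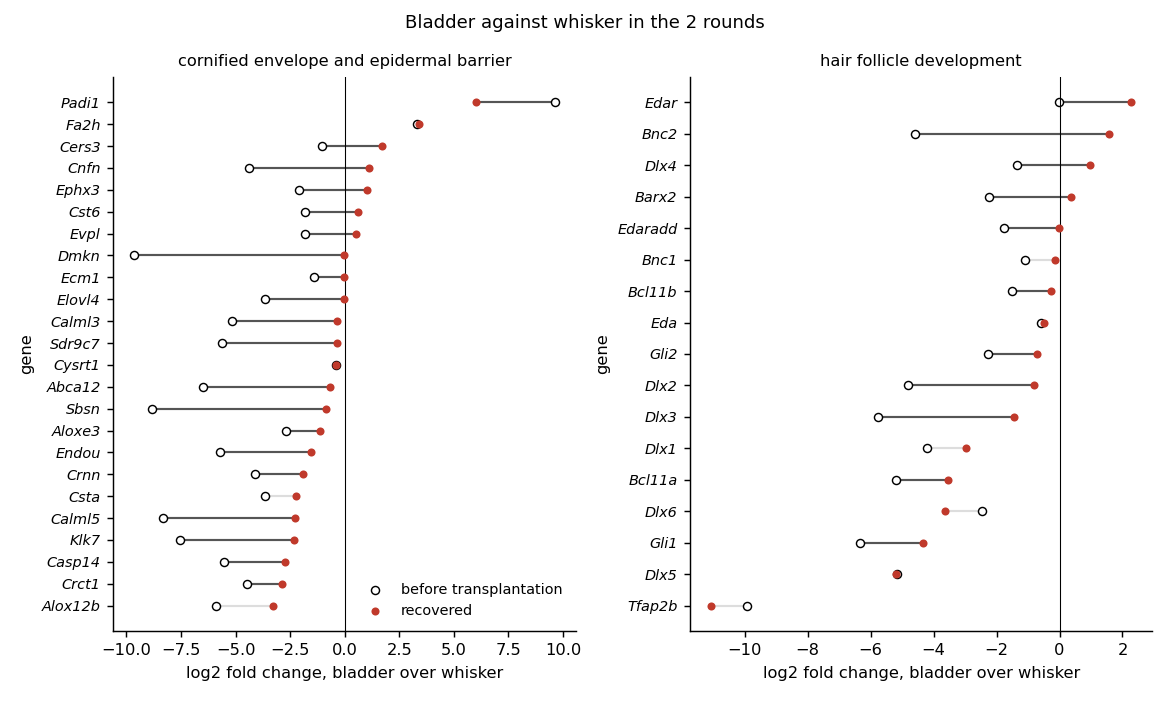
Log2 fold change of bladder over whisker before transplantation (open circles) and in recovered cells (red points) for the tested members of the epidermal barrier list (24 genes) and the hair follicle list (17 genes). A dark line marks a gene called in the interaction of tissue and round, and most dark lines run from negative values toward 0, whereas Tfap2b and Dlx5 are far below 0 in both rounds.

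In the follicle list the interaction was called upward in 11 of 17 members and downward in none, although Gli1 (interaction 2.02) and Bcl11a (1.64) were still lower in recovered bladder. Dlx3, a homeobox factor of hair and epidermis, had a difference of -5.77 log2 units before transplantation and of -1.43 after, and Barx2, a homeobox factor, of -2.23 before and 0.36 after, where it was not called. Tfap2b, with an interaction of -1.15 ± 1.02 (limma adjusted p = 0.38), and Dlx5 (-0.02) were not called in the interaction.

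Of the genes called between the recovered cells, 1247 were higher in bladder in both rounds and 549 lower in both. A further 443 were called higher after recovery and not called before, and in 215 of these the interaction was called. Likewise 290 were called lower after recovery and not called before, 123 of them with a called interaction. In 108 genes the direction turned from lower before to higher after, and in 37 from higher to lower. The interaction was called in all of them. Calls in opposite directions already put the interaction, a difference of the same values, past the fold threshold. Its call in these genes is therefore no separate evidence of a change.

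Claudins and tight junction genes were higher in recovered bladder in 9 of 14 members and lower in 1, with a median log2 fold change of 1.32. Cldn4, a barrier claudin of urothelium, was at 1973 and 1946 CPM against 805 and 705 CPM. Cldn7 had no read in whisker and 5.52 and 5.04 CPM in bladder, at least 40.5-fold higher. Cldn1, the claudin of the epidermal barrier, was at 730.2 and 750.1 CPM in bladder and 168 and 183 CPM in whisker, a log2 fold change of 2.08 ± 0.21. Before transplantation Cldn1 had been lower in bladder, at 111 and 49.96 CPM against 621 and 585 CPM in whisker, and the interaction was 5.09 ± 0.29 log2 units. Its direction thus turned between the rounds. Epcam, an adhesion molecule of simple epithelia, was at 338 and 352 CPM against 144 and 146 CPM. Cldn3 (143 and 147 CPM against 119.9 and 112 CPM) was not called.

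Cadherins and desmosomal genes were divided, with 5 of 15 higher and 3 lower. Dsc3, the desmocollin of basal keratinocytes, was lower at 696 and 674 CPM against 1509 and 1690 CPM, and Dsg1, a desmoglein of the upper epidermis, lower at 6.71 and 5.85 CPM against 31.1 and 32.2 CPM. Dsg3, a desmoglein of the lower layers, was not called at 1647 and 1591 CPM against 1417 and 1545 CPM. Dsc2 was higher at 672 and 685 CPM against 331 and 345 CPM, close to the 2-fold threshold, and its call was lost without recovered bladder replicate 2 (log2 fold change 0.99) or recovered whisker replicate 1 (0.98). In the basement membrane list, 3 of 11 were higher and 3 lower. Col17a1, which anchors basal cells, was lower in bladder at 2323 and 2374 CPM against 4856 and 4966 CPM, and so was the integrin Itgb8, at 13.9 and 13.5 CPM against 32.2 and 34.8 CPM. Col4a3 and Col4a4 are collagen IV chains of specialised basement membranes, and both were higher. Col4a3 had no read in whisker and 6.05 and 5.21 CPM in bladder, at least 43.1-fold higher. Col4a4 was at 19.8 and 20.5 CPM against 0 and 0.0409 CPM (1 read), with 0.261 and 0.474 CPM in bladder before transplantation and an interaction of 7.31 ± 0.99 log2 units.

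Developmental transcription factors outside the follicle list were higher in 13 of 27 members and lower in 6, with a median of 0.87. Hoxb3 was at 11.3 and 11.8 CPM and Hoxb4 at 6.24 and 4.86 CPM in bladder, with 1 read of Hoxb3 and none of Hoxb4 in whisker. Neither Hox gene was called in the interaction, and both had been higher in bladder before transplantation. Ehf, an epithelial ETS factor, was at 366 and 356 CPM against 96.6 and 99.6 CPM. On the other side Tbx1, a T-box factor, was lower at 9.09 and 9.47 CPM against 83.2 and 107 CPM, and Wt1, a zinc finger factor, at 0.0476 and 0.04305 CPM against 3.13 and 2.95 CPM. Elf5, an ETS factor, had been lower in bladder before transplantation (log2 fold change -2.57) and was higher after it, at 12.1 and 13.2 CPM against 3.499 and 2.87 CPM.

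Signalling genes are given by pathway. Their counts stand against 31.0% higher and 14.7% lower among genes with a symbol, and differences between pathways were not tested. In the Wnt list 3 of 21 members were higher and 2 lower, with a median of -0.07. Wnt4, a ligand, was higher at 177 and 174 CPM against 84.2 and 70.7 CPM. Dkk3, of the Dickkopf family, was at 1.62 and 2.11 CPM against 0.0921 and 0.0409 CPM (3 reads in all, ratio 28.02 with a 95% counting interval of 9.53 to 143). Wnt3 was under 1 CPM in all 4 libraries and not called. In the BMP and activin list 6 of 15 were higher and 4 lower. Bmp3 was at 184 and 182 CPM against 26.7 and 26.4 CPM and Bmp8b at 31.3 and 31.6 CPM against 2.12 and 2.25 CPM, whereas Bmp4 was lower at 1.14 and 0.904 CPM against 2.62 and 2.62 CPM. Fstl1, a follistatin-like secreted protein, was lower at 5.52 and 3.96 CPM against 41.1 and 35.98 CPM, and Bambi, a decoy receptor, at 1.38 and 1.76 CPM against 5.29 and 4.71 CPM. Ligands therefore went both ways in this pathway.

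In the EGF family and ERK feedback list 5 of 12 were higher and 1 lower, and 4 of the 5 were ligands. Areg was at 216 and 218 CPM against 56.8 and 57.8 CPM, Ereg at 141 and 143 CPM against 30.2 and 27.6 CPM, Epgn at 227 and 252 CPM against 41.8 and 45.2 CPM and Nrg1 at 153 and 149 CPM against 75.2 and 65.8 CPM. Dusp6, a phosphatase induced by ERK signalling, was lower, at 65.8 and 72.2 CPM against 239 and 199 CPM. In the Notch list 1 of 10 was higher and 2 lower, among them the ligand Dll1 at 36.9 and 36.03 CPM against 88.4 and 88.8 CPM. Of the ephrins and axon guidance genes 3 of 18 were higher and 5 lower. Efnb2, an ephrin ligand, was higher at 351 and 347 CPM against 157 and 142 CPM, and the receptor Ephb6 lower at 29.1 and 31.2 CPM against 87.03 and 88.3 CPM.

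**Figure D4:**
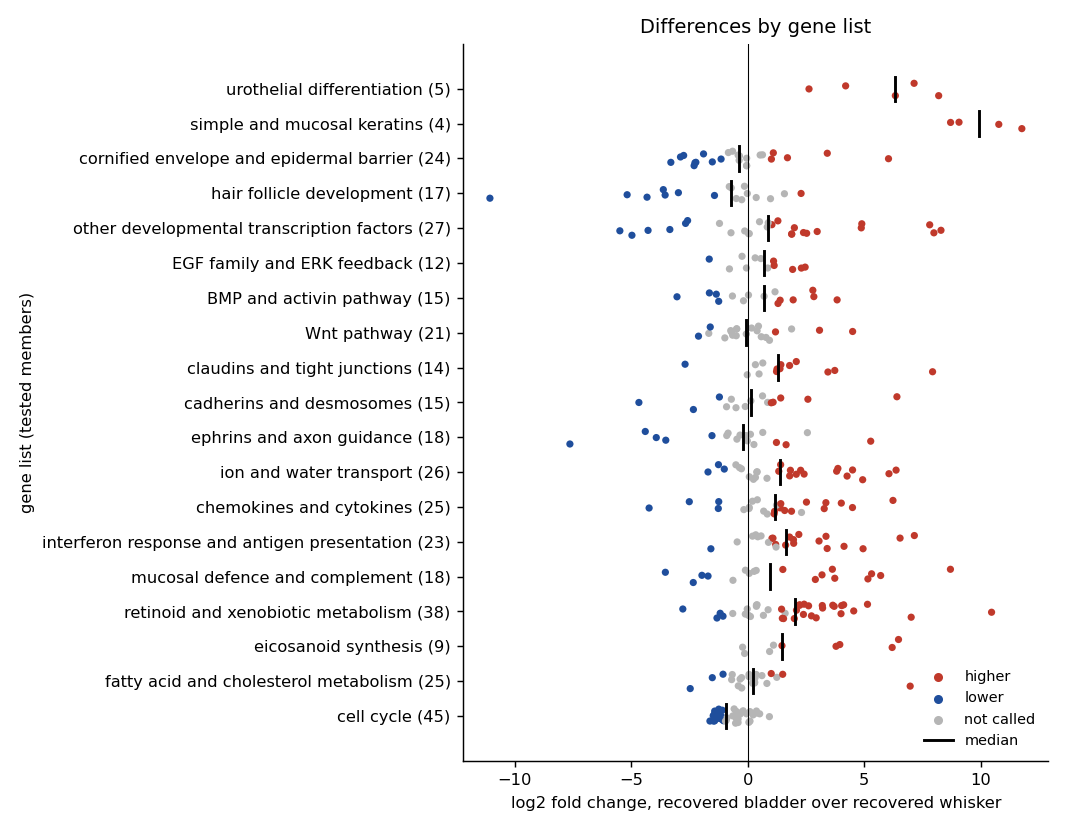
Log2 fold change of recovered bladder over recovered whisker for the tested members of 19 gene lists, with called genes in red (higher) or blue (lower), other genes in grey and the list median as a black bar. Median bars run from 9.92 for simple and mucosal keratins to -0.93 for cell cycle genes, and the blue cell cycle points lie close together at or below -1.

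In the chemokine and cytokine list 12 of 25 members were higher in recovered bladder and 4 lower. Cxcl10, an interferon-induced chemokine, was at 299 and 330.3 CPM against 20.03 and 19 CPM, and Cxcl2, a neutrophil chemokine, at 138 and 139 CPM against 14.3 and 14.2 CPM. Il36rn and Il1f10, members of the interleukin 1 family made in skin, were lower, Il36rn at 16.4 and 15.9 CPM against 87.2 and 97.5 CPM. Of the interferon and antigen presentation genes, 15 of 23 were higher and 1 lower (Dhx58). Irf8, an interferon regulatory factor, was at 89.3 and 86.9 CPM against 8.196 and 8.39 CPM, and Sp140, a nuclear body protein, at 96.6 and 86.1 CPM against 0.737 and 1.23 CPM. Slfn5, an interferon-induced gene, was at 45.8 and 44.04 CPM against 0.184 and 0.4503 CPM. Not all such genes differed, and Isg15, at 2.86 and 2.28 CPM against 1.61 and 1.801 CPM, was not called.

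In the mucosal defence and complement list 9 of 18 were higher and 4 lower. C3, the central complement protein, was at 60.9 and 55.7 CPM against 1.84 and 1.43 CPM, and Cd55, which restrains complement on the cell surface, at 225 and 228 CPM against 16.7 and 17.4 CPM. The 4 lower genes were the dual oxidases, which release hydrogen peroxide at epithelial surfaces, and their maturation factors. Duox1 was at 16.05 and 15.7 CPM against 184 and 185 CPM, a log2 fold change of -3.54 ± 0.09, and Duox2 at 28.1 and 29.8 CPM against 109 and 118 CPM. Duoxa1 was at 32.4 and 34.7 CPM against 108 and 111 CPM and Duoxa2 at 2.05 and 1.33 CPM against 8.75 and 8.11 CPM.

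Leukocyte markers moved in the same direction as the immune genes. The summed level of the 12 paired markers was 358.5 and 356 CPM in recovered bladder and 15.98 and 18.7 CPM in whisker, and 10 of the 12 were called higher. Arhgdib made up most of it, at 287 and 290.3 CPM against 3.64 and 2.21 CPM, with Cd68, a lysosomal protein, at 55.1 and 52.9 CPM against 10.04 and 12.7 CPM. Without these the sum was 16.2 and 12.8 CPM against 2.30 and 3.77 CPM. Cd53 (0.524 and 0.818 CPM) and Coro1a (0.381 and 0.473 CPM), markers of most leukocytes, were under 1 CPM in bladder, and Ptprc was not analysed here. The part of other cells in the immune values was not tested, and in bulk libraries fewer cells of a type and less RNA per cell cannot be told apart. Of 12 fibroblast markers none was higher and 1 (Col5a1) lower, with a sum of 307 and 308 CPM in bladder and 453 and 486 CPM in whisker. Of 7 endothelial markers 3 were higher and 1 lower, with a sum of 9.67 and 9.73 CPM in bladder and 10.8 and 11.6 CPM in whisker. Of 4 smooth muscle markers 2 were higher and 1 lower (Cald1), with a sum of 302 and 311 CPM in bladder and 568 and 521 CPM in whisker. No marker of melanocytes could be paired.

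Retinoid and xenobiotic metabolism had 23 of 38 members higher in recovered bladder and 4 lower, with a median log2 fold change of 2.04, or 1.57 with genes without reads in whisker set at their lower bound. Aldh1a3, which makes retinoic acid, was at 495 and 462 CPM against 4.14 and 3.32 CPM, a log2 fold change of 7.01 ± 0.23 (limma adjusted p = 7.27e-13). Its relative Aldh1a1 was lower, at 1.91 and 1.94 CPM against 13.6 and 13.3 CPM. Crabp2, which carries retinoic acid in the cell, was at 334 and 318 CPM against 48.4 and 49.8 CPM. Genes of turnover were higher in bladder too, Cyp26b1, which degrades retinoic acid, at 105 and 98.4 CPM against 19.6 and 19.3 CPM and Dhrs3, a retinal reductase, at 193 and 189.7 CPM against 71.3 and 65.95 CPM. Cyp26b1 and Dhrs3 had not been called between the tissues before transplantation and were called in the interaction (2.94 and 2.02), while Aldh1a3 and Crabp2 had been higher in bladder already. Aldh1a3 was at 5530 and 4074 CPM in bladder cells before transplantation and 52.9 and 59.9 CPM in whisker cells.

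Of the eicosanoid synthesis genes 5 of 9 were higher and none lower. Ptgs1, the constitutive cyclooxygenase, was at 355 and 369.9 CPM in recovered bladder and 4.74 and 3.56 CPM in recovered whisker, with a log2 fold change of 6.47 ± 0.16. Ptgs2, the inducible enzyme, was at 96.4 and 98.7 CPM against 5.85 and 6.75 CPM. The downstream synthase Ptges, at 78.4 and 80.9 CPM against 44.1 and 39.5 CPM, had a log2 fold change of 0.93 ± 0.10 and was not called, and it was called without recovered whisker replicate 1 (1.01). Fatty acid and cholesterol metabolism had 3 of 25 members higher and 3 lower. There Apoe, a lipid carrier, was lower at 83.8 and 92.6 CPM against 507 and 472 CPM.

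Of ion and water transport genes, 14 of 26 were higher and 3 lower. Atp1b1, a sodium pump subunit, was at 410.1 and 412 CPM against 35.2 and 24.6 CPM, and the water channel Aqp3 at 377 and 378 CPM against 79.2 and 77.6 CPM. Clic5, an intracellular chloride channel protein, was at 118 and 112 CPM against 4.56 and 5.61 CPM. Car12, a carbonic anhydrase, was lower at 749 and 764 CPM against 1727 and 1904 CPM. The carbonic anhydrases went both ways, since Car9, from the hypoxia list (4 of 13 higher, 2 lower), was higher at 133 and 138 CPM against 14.7 and 15.4 CPM. Among cathepsins and cystatins 3 of 11 were higher and none lower. Ctsd, a lysosomal protease, was higher at 4663 and 4286 CPM against 1271 and 1107 CPM and Ctsh at 144 and 152 CPM against 12.8 and 12.7 CPM, while Ctsb and Ctsl were not called. Before transplantation whisker cells had 74.2 and 73.99 CPM of Car9 and 148 and 145 CPM of Ctsh, so that the whisker levels after recovery were the lower ones. With the earlier whisker cells as reference the log2 fold change of recovered bladder was 0.87 for Car9 and 0.02 for Ctsh, and neither was called.

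Cell cycle genes were lower in recovered bladder in 21 of 45 members and higher in none, with a median log2 fold change of -0.93. Cenpf, a kinetochore protein, was at 35.1 and 29.6 CPM against 89.6 and 110.4 CPM, Ccnb1, a mitotic cyclin, at 19.5 and 20.6 CPM against 60.5 and 52.6 CPM, and Aurkb, a mitotic kinase, at 71.7 and 69.7 CPM against 188 and 191 CPM. The called genes lay between -1.05 (Aspm) and -1.63 (Cenpf) log2 units, and the call of Aspm was lost without recovered bladder replicate 2 or recovered whisker replicate 2 (-0.95 each). Ccne1, a cyclin of S phase entry (35.1 and 35.9 CPM against 21.7 and 16.2 CPM), and Cdc6, a licensing factor (7.95 and 6.59 CPM against 5.85 and 5.24 CPM), were not called. Before transplantation 7 of the 45 had been lower and 6 higher. Growth rates are not given in the sources used here, and their part in these values was not tested.

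Of CDK inhibitors and p53 targets 2 of 10 were higher and 2 lower. Cdkn2b (p15) was higher at 141 and 137.2 CPM against 29.3 and 27.7 CPM, Cdkn1c (p57) lower at 9.19 and 9.298 CPM against 38.7 and 38.9 CPM, and Cdkn1a (p21) not called at 383 and 359 CPM against 315 and 299 CPM. Genes of the unfolded protein and amino acid stress response were lower in 2 of 11 members and higher in none, with Creld2 at 16.7 and 17.1 CPM against 56.8 and 44.1 CPM and Erp29, a protein of the endoplasmic reticulum, at 37.1 and 35.1 CPM against 81.5 and 78.4 CPM. Immediate early and YAP response genes were higher in 3 of 13 and lower in 3, among them Egr3 (higher, 54.6 and 53.9 CPM against 26.5 and 22.3 CPM) and Egr1 (lower, 462 and 462 CPM against 989 and 923 CPM). The call of Egr1 was lost without recovered whisker replicate 1 (log2 fold change -0.998).

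Compared with the mean of recovered trachea, vagina and thymus, 1935 genes (14.5%) were called in bladder, 1431 higher (10.8%) and 504 lower (3.79%), and 1757 (13.2%) in whisker, 771 higher (5.80%) and 986 lower (7.41%). These comparisons share libraries with the one above, and their log2 fold changes are set side by side only. Of 5 Y chromosome genes 2 could be paired, with a sum of 242 and 257 CPM in recovered bladder and 220 and 247 CPM in recovered whisker. In the libraries of recovered trachea, vagina and thymus the sum was at most 0.0696 CPM. Donor sex and tissue therefore cannot be told apart in these comparisons. They refer to the mean of the 3 tissues on the log2 scale, and a single tissue can depart from it. Krt8 was higher in bladder (2.66) and lower in whisker (-8.11) than this mean, with 249 CPM in trachea, close to the level in bladder, 59.7 CPM in thymus and 5.66 CPM in vagina. Krt19 likewise had 5.59 in bladder and -6.16 in whisker, and the highest of the other tissues was thymus at 35.1 CPM. Krt4 was lower in whisker (-8.12) and not called in bladder (0.94), with a mean of 939 CPM in thymus. The bladder libraries lay above those of each other tissue in both Krt8 and Krt19, but in Krt8 by little over trachea.

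Some genes higher in recovered whisker were also higher there than the mean of the other tissues. Nfasc was higher in whisker than this mean by 7.94 log2 units and not called in bladder (0.30). Tfap2b was at a mean of 8.28 CPM in vagina, under 0.1 CPM in thymus and without a read in trachea. Gli1 was higher in whisker (3.09) and lower in bladder (-1.23), where its level was close to the 0.712 CPM of thymus. Duox1, by contrast, was lower in bladder (-3.08) and not called in whisker (0.46), with means of 179 CPM in vagina and 167 CPM in thymus. Krt10 was higher than the mean in both, by 3.77 in bladder and 5.69 in whisker, although vagina, at 329 CPM, lay above bladder. Dmkn was higher by 2.81 and 2.86, and both cell types lay above each other tissue, of which vagina had the most, at 45.1 CPM. Chst11, a chondroitin sulfotransferase, was not called between bladder (19.1 and 18.4 CPM) and whisker (22.8 and 17.3 CPM), and had log2 fold changes of 1.29 and 1.37 against the mean. Its level was 1.37 CPM in trachea, 13.6 CPM in vagina and 23.9 CPM in thymus, the last above both bladder and whisker.

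**Figure D5:**
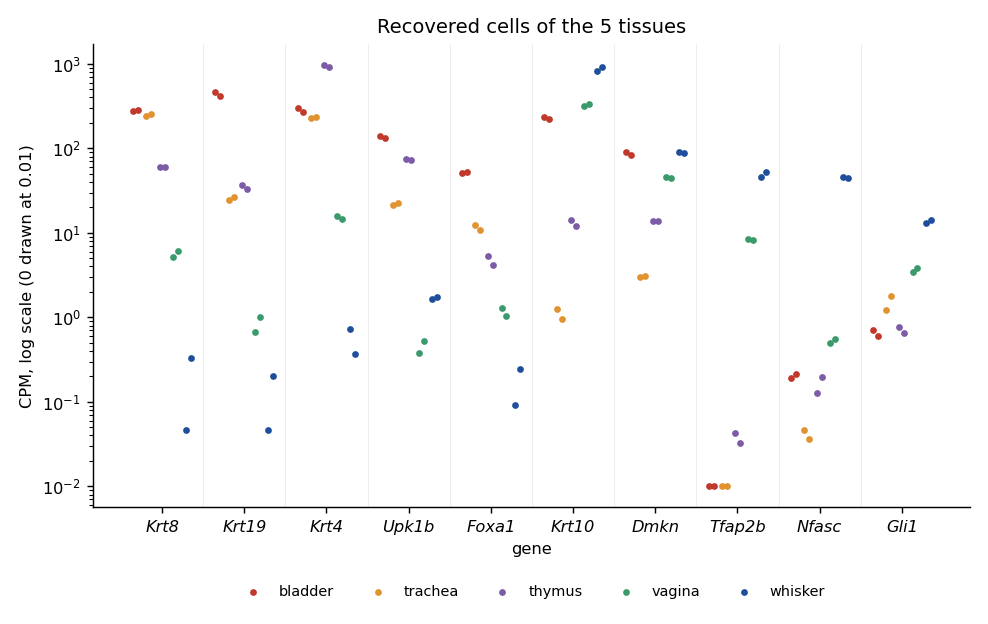
Levels of 10 genes in both libraries of each of the 5 recovered tissues, in CPM on a log scale, with values of 0 drawn at 0.01. Whisker (blue) is the lowest tissue in Krt8, Krt19, Krt4 and Foxa1 and the highest in Krt10, Tfap2b, Nfasc and Gli1, and bladder (red) lies within the range of the other tissues in Krt4 and Nfasc.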

How the data were processed

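The authors deposited 1 file of raw read counts per gene for each library, made according to the submitters' processing notes with cutadapt 1.8, STAR 2.5.2b and HTSeq 0.6.1 on Rnor 6.0, from stranded mRNA libraries. Reads that map to several places were not counted, which lowers the values of near-identical gene copies, and in the libraries compared 43.1% to 46.4% of reads stand in the 5 closing rows that name no gene, which were left out. Columns of the authors' own comparisons (fold changes and p-values, in the paper's supplements) were not used. Symbols came from those supplements, held here in part, and paired 2311 of 32494 identifiers, 1911 of them usable.

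Counts of all 20 libraries (10 groups of 2) were scaled by TMM (edgeR 4.0.16) and fitted with limma 3.58.1 voom in R 4.3.3 with 1 mean per group, which leaves 10 residual degrees of freedom. Genes needed 1 CPM in 1 library. P-values were adjusted over all genes by the Benjamini-Hochberg method. A gene was called at an adjusted p under 0.05 and 2-fold. The interaction is the difference bladder minus whisker after recovery less that before transplantation. Lower bounds of folds set groups without reads at 3 counts per library, and counting intervals (95%) cover counting error only. Alternatives were edgeR's quasi-likelihood test, DESeq2 1.42.0, other scalings, filters and thresholds, other sets of samples, a replicate block and leaving out each library. The fits were tested on simulated data.

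The comparison, the gene lists and the markers were chosen with earlier results of these data known. Named were the 12 genes highest and the 12 lowest among called genes with a symbol and at least 10 CPM in the higher group, up to 4 called members of each list with the most abundant uncalled one, the 5 interactions at each end and genes the study discusses, 150 in all. Other list members are given with their values as examples chosen after these were seen. Promoter sequences from RefSeq (GRCr8) matched 115 of the 150 by symbol.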

Additional observations from a re-analysis of the deposited data

Results flagged for a closer look

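The difference between bladder and whisker changed between the 2 rounds, by the test of the interaction of tissue and round in limma voom, in the 5 genes at each end of the interaction among genes with a symbol. Cdh6, a cadherin, had an interaction of -11.67 log2 units, with 49.3 and 38.9 CPM in bladder before transplantation, no read in recovered bladder and at most 1 read in the whisker libraries of a group. With so few reads in the other groups, the size of this value is not measured. Ass1, an enzyme of arginine synthesis, had -6.54, with 159 and 133 CPM in bladder and 4.28 and 3.84 CPM in whisker before transplantation. Clca1 had -6.78, Crip1 -6.43 and Calcb -5.73, and the call of Clca1 was lost when any of 4 libraries was left out (recovered bladder replicate 2, both whisker libraries before transplantation or recovered whisker replicate 1, between -4.39 and -6.86). These 3 values rest on few whisker reads, 0 before transplantation and 13 after for Clca1, 1 and 7 for Crip1 and 6 and 23 for Calcb. At the other end were Dmkn (9.59), Fads2l1 (8.86), Clip4 (8.56), Sbsn (8.0) and Krt10 (7.95). Fads2l1 was at 0.112 and 0.0431 CPM in bladder before transplantation against 64.2 and 60.0 CPM in whisker. No group had enough libraries for a check of single libraries that stand apart.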

How the results depend on the processing

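Counts of called genes kept within 1.5 times of the values given under every alternative except the stricter threshold of a log2 fold change of 2. There 1236 genes were called between recovered bladder and whisker (963 higher, 273 lower), 1274 in the interaction (644 and 630), 791 in bladder against the other recovered tissues (629 and 162) and 749 in whisker against them (241 and 508). With edgeR's quasi-likelihood test the main comparison gave 2662 genes and with DESeq2 2602. Leaving out 1 library gave 2479 to 2573 genes (1627 to 1780 higher, 793 to 892 lower), 2592 to 2998 in the interaction, 1756 to 1922 in bladder and 1469 to 1734 in whisker against the other tissues. Replicate numbers did not pair the libraries, with a correlation of deviations of 0.0023 between recovered bladder and whisker, and a replicate block gave 2688 genes, 2660 of them shared. A block within the 4 libraries alone, added after seeing the data, gave 2639. With whisker cells before transplantation as reference 2763 genes were called, and 2037 of them were shared with the main comparison. A similar total thus did not mean the same genes. Of the 150 named genes, 16 lost their call under this reference and 9 gained one. A further 7 changed sign, at log2 fold changes of -1.02 for Aldoc, -0.16 for F11r, -1.23 for C1r, -0.15 for Degs1, -0.43 for Acvr1b, 0.13 for Bcl11b and 0.0855 for Ass1. Of these Aldoc had been called higher and Ass1 lower, the others not. That reference is another group of libraries. Without recovered whisker replicate 1 Chst11 had 0.11, and over all leave-one-outs -0.29 to 0.11, never called. The call of Clca1 between the recovered cells was lost in edgeR, DESeq2, with library size only, without a filter, with the block and without any 1 of the 4 libraries. Depth limits genes with few reads in 1 group, whose folds are bounds or ratios.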
